A study of Mus musculus with 6 samples.

Results

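The genes described here sense and turn over vitamin D: Vdr, the vitamin D receptor; Cyp24a1, the 24-hydroxylase that inactivates calcitriol; Cyp27b1, the 1-alpha-hydroxylase that makes it; and Rxra and Rxrb, retinoid X receptors that pair with Vdr on DNA. They were chosen by name, as 5 of the 31053 genes listed in every library, and followed through 6 droplet single-cell RNA-seq libraries of mouse cells. Calcitriol, the active hormone, enters the cell and binds Vdr, and the Vdr and RXR pair then acts on genes near its binding sites. Cyp24a1 is the classical target of that pair and closes a feedback loop by degrading the hormone, and macrophages and dendritic cells (DCs) are known to carry Vdr and, when activated, Cyp27b1. In the GRCm38 build the gene models lie on the minus strand for Vdr (ENSMUSG00000022479) at chr15:97854425-97910630 and Cyp24a1 (ENSMUSG00000038567) at chr2:170482708-170497145, and on the plus strand for Cyp27b1 (ENSMUSG00000006724) at chr10:127048250-127053006, Rxra (ENSMUSG00000015846) at chr2:27676440-27762957 and Rxrb (ENSMUSG00000039656) at chr17:34031812-34038399.

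Bone marrow-derived DCs from wild-type mice (C57BL/6J) were either left untreated, given vitamin D3 (VD3, 1e-06 mol per litre for 24 h from day 7 of culture) or subjected to Cas9 knockout of Ndrg2 with 3 guides delivered together as protein complexes (Ndrg2-KO). The other 3 libraries came from splinted skin wounds of wild-type mice, aged 6 weeks, that had received a blank hydrogel or a hydrogel carrying either control DCs or Ndrg2-KO DCs, with 5 mice per group and tissue taken on day 10. By the labels the control DCs were untreated, whereas the study's methods give them non-targeting guides. In the cultures, the edit and the nucleofection that delivered it cannot be told apart, since the comparison culture is labelled untreated. The edited cultures were pools of cells and not a clone, and whether wound cells were pooled before loading is not given in the sources used here. Each condition had a single library, so conditions were compared by levels and ratios without a test, and a type with fewer cells and a type with less RNA per cell cannot be told apart in a library sum. Levels are UMIs (unique molecular identifiers, counted transcripts) per 1000000 UMIs of a library or cluster (CPM), and every interval is a 95% interval that covers counting error only.

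After filtering, 7257 untreated, 8825 VD3 stimulated and 7969 Ndrg2-KO DCs remained, with median depths of 12089 to 16316 UMIs, and the wound libraries held 1948 to 5681 cells with medians of 4415 to 10795 UMIs. The number of cell barcodes shared by any pair of libraries ranged from 1 to 19. Ndrg2 stood at 4.62 CPM in untreated, 0.884 in Ndrg2-KO and 1.42 in VD3 stimulated DCs. Guide-edited genes can still be transcribed, so residual UMIs do not count unedited cells. The DC marker genes Itgax (77.8 to 263 CPM) and H2-Ab1 (487 to 908 CPM) were present in all 3 DC libraries, beside clusters of neutrophil-like, progenitor-like and basophil or mast cell-like cells. Clusters were built without the genes of the vitamin D pathway and called "X-like" only from marker lists.

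VD3 stimulated DCs were set apart by Cyp24a1 and by a higher Vdr level. Cyp24a1 counted 36662 UMIs in VD3 stimulated DCs, 1 in untreated DCs, 0 in Ndrg2-KO DCs, 0 in wounds with control DCs, 2 in wounds with Ndrg2-KO DCs and 0 in wounds with blank hydrogels. The VD3 library was therefore the only library of the 6 above 2 UMIs, at 315 CPM (312 to 318). With a single UMI in untreated DCs, the log2 ratio of VD3 stimulated to untreated was 15.35, with a wide interval of 12.87 to 20.65. When each cell was thinned to 2000 UMIs, 24.6% of VD3 stimulated cells (23.7 to 25.6) had a Cyp24a1 UMI, and without thinning 39.7% did. In Ndrg2-KO DCs 0 of 7835 thinned cells had a Cyp24a1 UMI, which by the limit of 3 counts allows a share of up to 0.0383% of cells with a UMI at that depth, and in untreated DCs 0 of 6785 did, which allows up to 0.0442%.

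Vdr stood at 51.1 CPM in untreated DCs, 134.7 in VD3 stimulated DCs, 55.4 in Ndrg2-KO DCs, 12.7 in wounds with control DCs, 4.98 in wounds with Ndrg2-KO DCs and 8.91 in wounds with blank hydrogels. All 3 cultures were above all 3 wound libraries, and the VD3 library was highest. The log2 ratio of Vdr between VD3 stimulated and untreated DCs was 1.40 (1.36 to 1.44), and it was 0.99 when cells with 5% or more mitochondrial UMIs were left out. Ndrg2-KO and untreated DCs were neighbours in that order, with a log2 ratio of 0.12 (0.07 to 0.16) whose sign turned to −0.066 under the same 5% limit. That limit kept 3125 of 7257 untreated, 3619 of 8825 VD3 stimulated and 1721 of 7969 Ndrg2-KO cells.

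The RXR genes differed in opposite directions with VD3. Rxra stood at 12.9 CPM in untreated, 4.34 in VD3 stimulated and 19.8 in Ndrg2-KO DCs, and in the wounds at 22.1 CPM with control DCs, 18.0 with Ndrg2-KO DCs and 20.5 with blank hydrogels. The VD3 library was the lowest of all, with a log2 ratio to untreated of −1.57 (−1.71 to −1.42), whereas the ratio of Ndrg2-KO to untreated was 0.62 (0.53 to 0.71). Rxrb stood at 18.5 CPM in untreated, 29.8 in VD3 stimulated and 17.2 in Ndrg2-KO DCs, and between 12.3 and 14.9 CPM in the wounds. Its log2 ratio of 0.69 (0.61 to 0.76) in VD3 stimulated DCs stayed within 2-fold. Cyp27b1 was close to undetected in culture, with 1 UMI in untreated, 2 in VD3 stimulated and 0 in Ndrg2-KO DCs, so no ratio was formed. The wounds held 8, 12 and 5 Cyp27b1 UMIs, too few to separate the libraries. Rxrg, the remaining RXR gene, had no UMI in any culture and 2 to 5 in each wound library.

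**Figure D1:**
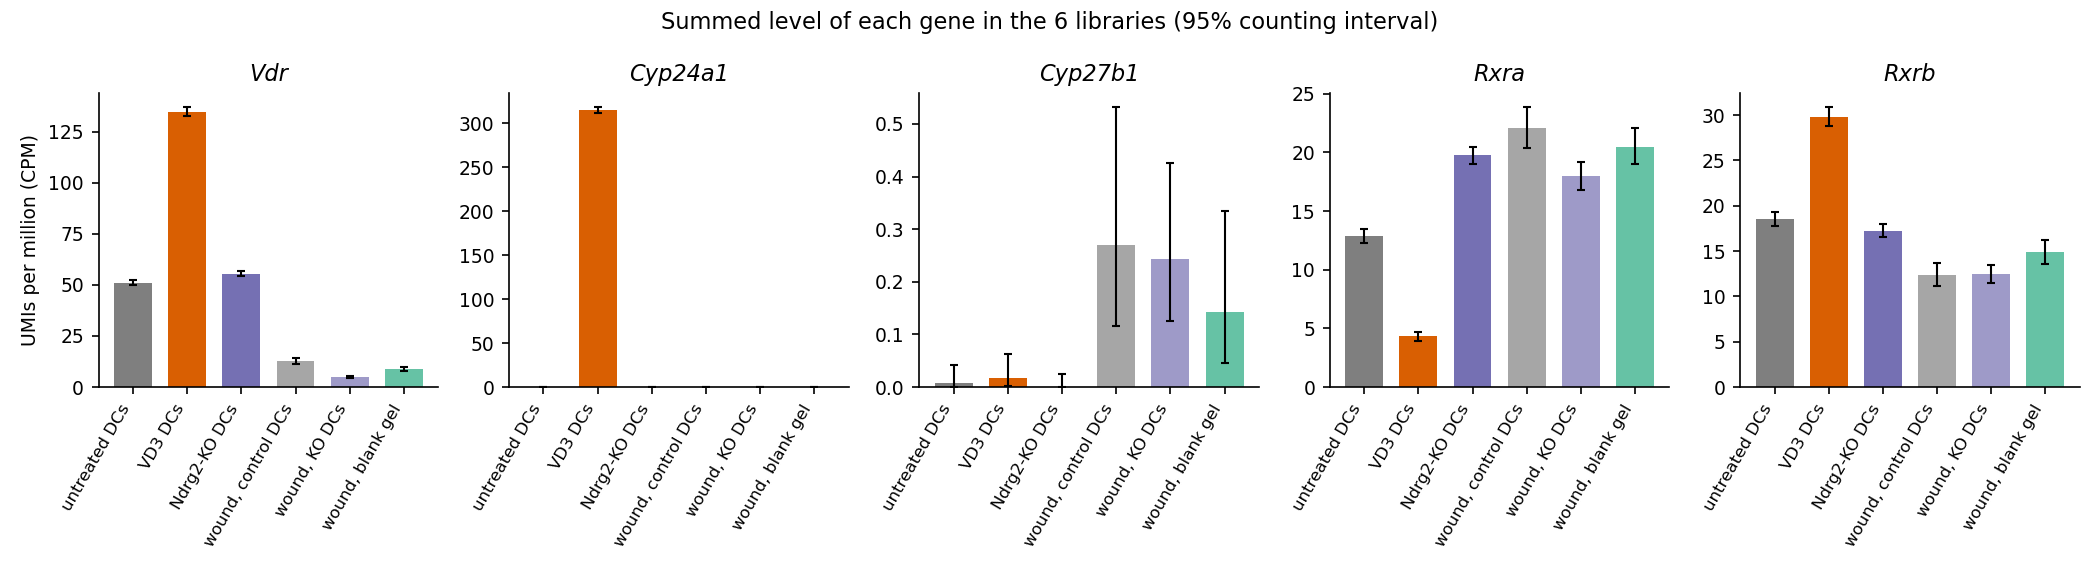
Level of each of the 5 genes in each of the 6 libraries, in CPM on separate linear axes that start at 0; bars are the summed level of 1 library and whiskers its 95% counting interval. Cyp24a1 is visible in VD3 stimulated DCs at 315 CPM and nowhere else, and Rxra is lowest there at 4.34 CPM.

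The promoters of Vdr and Rxra are shown because these genes differed by more than 2-fold with VD3. RefSeq promoters (GRCm38.p6) matched 4 of the 5 genes, with 6 start sites. Cyp24a1 had no match, so its promoter was not searched. The 250 bases before each start were searched on both strands for 6-base sites that Vdr and other nuclear receptors can bind, namely AGGTCA (in 4607 of all 32851 such windows), AGTTCA (in 11.8%), GGGTCA (11.6%) and GGTTCA (8.85%), and for any pair of them in direct repeat with 3 bases between. Vdr lies on chromosome 15, on the minus strand, and its window is chr15:97908297-97908546; the window of the second Rxra start, on the plus strand of chromosome 2, is chr2:27709042-27709291. Capitals mark a match, read on either strand.
Vdr: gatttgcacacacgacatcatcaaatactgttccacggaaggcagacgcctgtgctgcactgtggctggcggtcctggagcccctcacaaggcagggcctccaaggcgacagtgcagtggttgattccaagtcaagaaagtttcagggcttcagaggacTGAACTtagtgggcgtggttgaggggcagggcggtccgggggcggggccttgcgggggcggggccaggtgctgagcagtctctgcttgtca
Rxra, second start: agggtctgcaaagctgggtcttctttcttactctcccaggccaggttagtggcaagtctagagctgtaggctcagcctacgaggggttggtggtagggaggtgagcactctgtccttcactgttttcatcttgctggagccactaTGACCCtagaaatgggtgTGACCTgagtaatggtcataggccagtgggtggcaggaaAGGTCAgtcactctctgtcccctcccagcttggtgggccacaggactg
The Vdr window held AGTTCA on the opposite strand, from 91 to 86 bases before the start, and the second Rxra window held AGGTCA on each strand and GGGTCA on the opposite strand. The first Rxra window, with 81.2% G and C, held none of the 4 sites, and neither did those of Cyp27b1 and Rxrb. At least 1 of the sites stood in 38.6% of all windows, so such a match is common, and a window without one lacks only these letters. A direct repeat with 3 bases between was found in none of the 6 windows and in 0.0396% of all windows.

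Of the 4 genes with at least 50 UMIs in the VD3 stimulated and untreated libraries together, Cyp24a1 and Vdr were at least 2-fold higher and Rxra at least 2-fold lower with VD3, where 4.18% of 13110 genes were higher and 7.44% were lower by that rule. Between Ndrg2-KO and untreated DCs 0 of 3 were past 2-fold in either direction, beside 10.2% higher and 9.28% lower over all genes. Both comparisons used the same untreated library. Over all genes, log2 ratios had a median of −0.08 with VD3 and −0.06 with Ndrg2-KO.

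The wider pathway was examined through lists of genes for activation and transport, for coregulators and for known targets. With VD3, 0 of 3 measured (of 6) activation and transport genes, 0 of 9 (of 10) coregulators and 0 of 6 (of 15) known targets were past 2-fold, with list medians of 0.16, −0.10 and −0.24. Cyp27a1, a mitochondrial 25-hydroxylase, had the highest log2 ratio of the activation genes, 0.76 (0.57 to 0.94), and Dhcr7, which draws off the precursor of vitamin D toward cholesterol, the lowest at −0.82 (−0.99 to −0.66). Cd14, a lipopolysaccharide co-receptor, was at −0.11 (−0.17 to −0.06) and Cdkn1a, a cell cycle inhibitor, at −0.57 (−0.59 to −0.56). Spp1, encoding osteopontin, was at 0.17 (0.16 to 0.19). With 4.18% of all genes at least 2-fold higher and 7.44% lower, lists of this size would hold few such genes.

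Between Ndrg2-KO and untreated DCs, 2 of 3 activation and transport genes, 0 of 9 coregulators and 4 of 6 known targets were at least 2-fold higher, beside 10.2% of all genes, and none was 2-fold lower. Cyp27a1 was 1.60 (1.44 to 1.76) and Dhcr7 1.49 (1.38 to 1.60) higher on the log2 scale. Among the 6 measured targets, Cd14 (2.01), Thbd (1.26), Slc37a2 (1.81) and Spp1 (3.08) were at least 2-fold higher, while Cdkn1a was at −0.99 (−1.01 to −0.98) and Atp2b1, a calcium pump, at 0.29. Thbd, encoding thrombomodulin, rested on 127 and 49 UMIs. Cluster 0, with premature DC or monocyte-like markers, held 3661 of the 7969 Ndrg2-KO cells and 12 untreated cells; its part in these ratios was not tested.

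Within the VD3 library, Cyp24a1 was spread very unevenly, and its order over the cell clusters was not the order of Vdr. Of the clusters, cluster 8 was highest at 781 CPM (770 to 791) in 1086 cells. This cluster stayed unnamed because cycling, macrophage and neutrophil granule markers all passed in it. Cluster 7, macrophage-like with C1qa, C1qb, C1qc and Ms4a7 and led by the stress cytokine gene Gdf15, stood at 402 CPM (395 to 409) in 1585 cells. At resolution 1.0, a finer clustering, 1076 of these cells stayed macrophage-like, 375 formed an unnamed cluster and 120 were cDC1-like (conventional type 1 DC markers). Their Cyp24a1 levels were 504, 263 and 144 CPM in that order. Granulocyte-monocyte progenitor-like cells stood at 515 CPM, but numbered 31. The shallow proliferating-like cluster 3, with a median of 1840 UMIs and 0.34% mitochondrial UMIs per cell, stood at 290 CPM (272 to 310). Neutrophil-like cells stood at 106 CPM (97.0 to 116) and basophil or mast cell-like cells at 43.3 (29.6 to 61.1). These levels depended on how the cells were drawn. By marker gates, which let a cell count in several, the 77 progenitor-gated cells stood at 955 CPM (908 to 1004), above cluster 8. The 1021 proliferating-gated cells stood at 788 CPM (776 to 801), the 792 neutrophil-gated cells at 644 and the 838 macrophage-gated cells at 573. The 3997 mature-gated cells stood at 126 CPM and the 34 basophil or mast cell-gated cells at 8.40. The finer clustering split neutrophil-like cells into 46.5 and 302 CPM. Mature DC-like cells were low, with 32.5 CPM (30.8 to 34.2) in the 3111 cells of cluster 1 and 36.2 CPM (30.8 to 42.2) in the 310 cells of cluster 2, whose intervals overlapped that of the basophil or mast cell-like cells. In the finer clustering the 3 mature DC-like clusters of the VD3 library ranged from 5.10 to 74.7 CPM, the highest above a neutrophil-like cluster. With the VD3 library clustered alone, basophil or mast cell-like cells had 12.2 CPM (3.95 to 28.4) on 5 UMIs. That interval overlapped a mature DC-like cluster at 18.7 CPM (17.3 to 20.3) and lay below the other at 57.8 (54.3 to 61.4).

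Vdr followed another order. It was 165 CPM (160 to 169) in macrophage-like cells, 141 (138 to 145) in the mature DC-like cluster 1, 133 in the 38 cells of the unnamed cluster 9, 127 (117 to 138) in cluster 2 and 122 (118 to 126) in cluster 8. The intervals of clusters 1, 9 and 2 overlapped, as did those of 9, 2 and 8, while proliferating-like (82.5), progenitor-like (36.2), basophil or mast cell-like (24.4) and neutrophil-like cells (23.0) were below them. In this clustering mature DC-like clusters 1 and 2 combined a Vdr level near the top of the order with low Cyp24a1, and progenitor-like cells the reverse. The finer clustering split the mature DC-like cells of the VD3 library into 2981 cells at 141 CPM of Vdr (137 to 144), 123 cells at 224 (207 to 242) and 198 cells at 33.2 (25.6 to 42.3), the last low for both genes. Over the 9 clusters, which share library and sequencing run, log2 levels of both genes correlated at r = 0.16 as a description. The cells of cluster 9 and the progenitor-like cells held 338 and 256 Cyp24a1 UMIs.

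**Figure D2:**
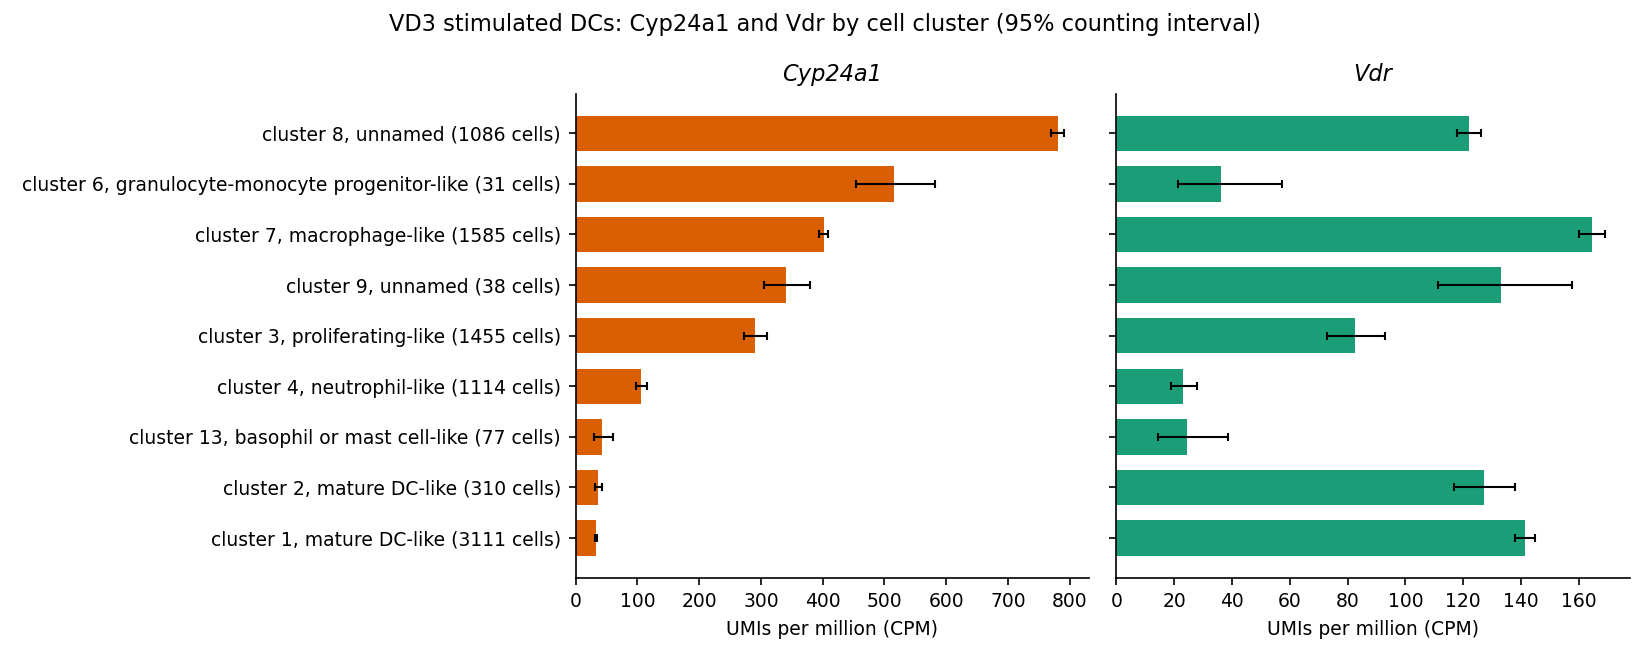
Cyp24a1 (left) and Vdr (right) in CPM by cell cluster of the VD3 library, ordered by Cyp24a1, on linear axes from 0; bars are summed levels and whiskers 95% counting intervals. The mature DC-like clusters 1 and 2 sit at the low end for Cyp24a1 (32.5 and 36.2 CPM), with intervals that overlap the basophil or mast cell-like cells, and among the highest for Vdr (141 and 127 CPM).

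Most VD3 stimulated cells without Cyp24a1 were mature DC-like. Of 8825 cells, 5318 (60.3%) had no Cyp24a1 UMI, and the share was 83.7% of 3433 mature DC-like cells and 45.3% of the other 5392. Shallow cells lack a gene more easily, so cells with at least 10000 UMIs were taken separately. Of these 5322 cells, 2661 had none. Mature DC-like cells made up 51.4% of the deep cells and 84.0% of the deep cells without Cyp24a1, and 81.7% of them lacked it (80.2 to 83.2). The share without was 19.7% (17.7 to 21.9) in macrophage-like cells, 6.74% (5.29 to 8.44) in cluster 8, 48.6% in the 74 deep neutrophil-like cells and 82.6% in the 23 deep basophil or mast cell-like cells.

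The gap held at matched depth. Between 10000 and 20000 UMIs, 84.2% of 2223 mature DC-like cells (82.6 to 85.7) and 21.3% of 1411 other cells (19.2 to 23.5) had no Cyp24a1 UMI. Between 20000 and 40000 UMIs the shares were 72.1% and 12.2%. Under 2000 UMIs they were 83.3% and 78.5% with overlapping intervals. At that depth only 30 mature DC-like cells were present.

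**Figure D3:**
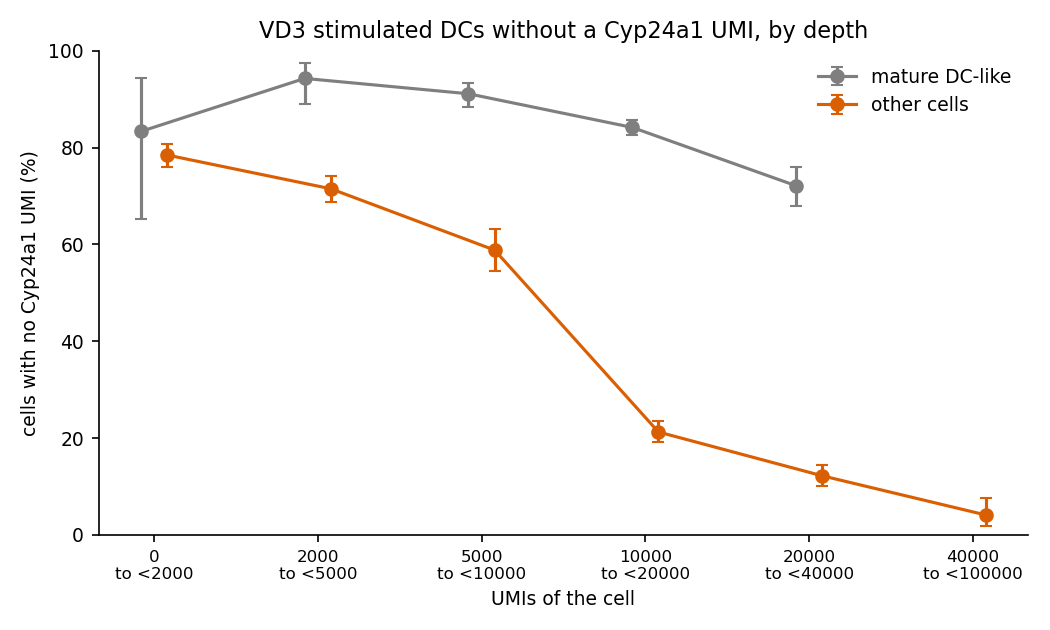
Percent of VD3 stimulated cells with no Cyp24a1 UMI (y axis, 0 to 100%) by the number of UMIs of the cell (x axis), for mature DC-like cells and all other cells; points are shares and whiskers exact 95% binomial intervals. The shares are close under 2000 UMIs and apart above it, at 84.2% and 21.3% between 10000 and 20000 UMIs.

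Cyp24a1 UMIs were concentrated in few cells. All 8825 cells, 5318 of them without a Cyp24a1 UMI, were ranked by raw count, without correction for depth. The top 1% held 14.4% of the Cyp24a1 UMIs and the top 10% held 67.7%, with a highest count of 112 in a cell. Among mature DC-like cells 39 had between 10 and 49 UMIs and none had 50 or more, against 1167 and 74 of the other cells. The 39 cells held 33.8% of the Cyp24a1 UMIs of their class.

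Droplets also carry free RNA, so the low counts in mature DC-like cells are given beside those of other cells of the library. Thinned to 2000 UMIs, 4.57% of cluster 1 cells (3.86 to 5.37, median 13435 UMIs) had a Cyp24a1 UMI, a share within the interval of the 71 basophil or mast cell-like cells (5.63%, 1.56 to 13.8, median 6934 UMIs). The share was 63.6% in cluster 8 and 44.7% in macrophage-like cells. Per 1000 UMIs of Lyz2, the lysozyme gene of myeloid cells, Cyp24a1 counted 654 UMIs in cluster 1, 68.6 in macrophage-like cells and 168 in cluster 8. Per 1000 UMIs of Gdf15 it counted 1674, 799 and 1847 in the same order, and per 1000 of Ms4a7 10000, 3920 and 13493, so for these genes cluster 1 lay between the others. Per 1000 of the neutrophil marker S100a9 it counted 2134.5, 1264.6 and 134.2, so cluster 1 was above both, as with Lyz2. The neutrophil marker Camp placed cluster 1 between, but on 6 Camp UMIs there. The part of free RNA in the mature DC-like count was not tested. Cells with at least 3 mature markers at 2000 UMIs, a looser definition chosen after the values were seen, gave 126 CPM of Cyp24a1 against 578 in the remaining cells of at least that depth.

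Deep cells without Cyp24a1 were compared with cells of the same class that had it; these are descriptions within a single library. In mature DC-like cells, 2235 without and 499 with, Vdr was 140 CPM without and 167 with, a log2 ratio of −0.25 (−0.34 to −0.17). The maturation genes Ccr7 (1413 and 1366 CPM) and Fscn1 (347 and 296) were as high or slightly higher in the cells without. The monocyte and macrophage genes Csf1r and Ms4a7 were low in both but lower in the cells without, at 2.40 and 5.34 CPM for Csf1r and 2.96 and 6.10 for Ms4a7. Spp1 was 133 CPM without and 253 with, and Cdkn1a 483 and 670. Cells without had a median of 14350 UMIs and cells with 16071.

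In macrophage-like cells, depth was nearly the same in 274 deep cells without Cyp24a1 and 1114 with it, at medians of 17029 and 17180 UMIs. Vdr was 147 CPM without and 169 with, a log2 ratio of −0.20 (−0.31 to −0.09). The proliferation marker Stmn1 was lower without (39.9 against 76.0 CPM), Ms4a7 higher (138 against 97.0) and Ccr7 higher (383 against 292).

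Cluster 8 held a small group of granule-rich cells among those without Cyp24a1. Its 70 deep cells without had 1055 CPM of Camp, the neutrophil granule gene for cathelicidin, and 29220 CPM of S100a9, against 2.23 and 4601 CPM in the 969 with it. Vdr was 67.4 CPM without and 125 with, a log2 ratio of −0.89 (−1.22 to −0.58). Camp was singled out after its values were seen. Of the 1044 cells of cluster 8 with no Camp UMI 94.3% had Cyp24a1, of the 31 with 1 to 9 Camp UMIs 61.3% did, and of the 11 with at least 10 Camp UMIs 2 did, at median depths of 22257, 17724 and 13804 UMIs. In the neutrophil-like cluster 4 the shares were 9.53% of 1070 cells (7.84 to 11.5), 26.7% of 30 (12.3 to 45.9) and 28.6% of 14 (8.39 to 58.1), at median depths of 2810, 7595 and 9491 UMIs. In both clusters the share moved with depth, whose part was not tested. The 11 cells of cluster 8 had no Vdr UMI, with an interval of 0 to 23.8 CPM.

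Vdr was higher with VD3 both in the mature class and outside it. In mature DC-like cells Vdr was 96.2 CPM in untreated, 140 in VD3 stimulated and 114 in Ndrg2-KO DCs, and in all other cells it was 30.7, 131 and 43.3 CPM. The log2 ratio of VD3 stimulated to untreated was 0.54 (0.48 to 0.60) in mature DC-like cells and 2.09 (2.03 to 2.15) in the others. Untreated cultures thus showed the highest Vdr in mature DC-like cells, whereas with VD3 both classes were close. The mature class was made up chiefly of cluster 1 in the VD3 library, cluster 2 in the untreated and cluster 5 in the Ndrg2-KO library, and the other cells were chiefly clusters 6, 9 and 4 in the untreated, 7, 3, 4 and 8 in the VD3 and 0 and 10 in the Ndrg2-KO library. Within mature clusters the log2 ratio for VD3 was 0.996 (0.71 to 1.30) in cluster 1 and 0.39 (0.26 to 0.52) in cluster 2. Outside them it was 2.01 (1.73 to 2.27) in cluster 9, 0.16 (−0.60 to 0.83) in progenitor-like and 0.57 (−0.52 to 1.69) in basophil or mast cell-like cells. For Ndrg2-KO against untreated, Vdr was 0.24 (0.17 to 0.31) in the mature class but −0.67 (−0.98 to −0.37) within cluster 2. Over the 9 clusters with at least 20 cells of each library, Vdr was higher with VD3 in 9, and the interval lay above 0 in 7, cluster 7 with its unlike cells (described with Rxra) among them.

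Rxra had the opposite distribution. In mature DC-like cells drawn by cluster it was low in the 3 libraries, at 3.49 CPM in untreated, 3.37 in VD3 stimulated and 3.35 in Ndrg2-KO DCs, with a log2 ratio for VD3 of −0.05 (−0.38 to 0.28). Drawn by the gate of at least 3 mature markers it was 5.86 CPM (5.25 to 6.53), 3.98 (3.51 to 4.49) and 8.06 (7.19 to 9.01) in the same order, with intervals that did not overlap. In all other cells it was 17.1, 5.05 and 23.2 CPM, a log2 ratio of −1.76 (−1.93 to −1.59) with VD3 and 0.44 (0.35 to 0.53) with Ndrg2-KO. Both ratios compare different clusters. Over shared clusters with a ratio, the VD3 value ran from −2.27 in cluster 7 to 1.89 (−0.61 to 7.21) in cluster 8, which had 46 untreated cells. In cluster 9 it was −0.79 (−1.71 to −0.009). Within the progenitor-like cluster 6 Rxra was lower in Ndrg2-KO DCs than in untreated DCs, at −1.81 (−2.94 to −0.87). Cluster 7 held different cells in each library, since 73 of its 115 untreated cells were cDC1-like at the finer clustering and none fell in the macrophage-like cluster there. Between its cDC1-like cells, 73 untreated and 120 VD3 stimulated, Rxra was 51.1 CPM (38.2 to 67.0) and 7.42 (3.83 to 13.0), and Vdr 17.7 (10.5 to 28.0) and 90.9 (76.8 to 107). In a further 42 untreated and 375 VD3 stimulated cells of an unnamed fine cluster, Rxra was 4.05 (0.836 to 11.8) and 6.81 (5.32 to 8.59), and Vdr 86.5 (66.6 to 110) and 168 (160 to 176). This division was made after the values were seen. In untreated DCs Rxra was 15.7 CPM in progenitor-like cells and 22.7 in the unnamed cluster 9, so the Rxra-bearing cells were those with less Vdr than mature DC-like cells. The interval for VD3 against untreated lay below 0 in 5 of 9 clusters, cluster 7 with its unlike cells among them. Rxrb was higher with VD3 in 9 of 9 clusters, with the interval above 0 in 3, and the log2 ratio was 0.51 (0.38 to 0.64) in mature DC-like and 0.79 (0.70 to 0.89) in the other cells.

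**Figure D4:**
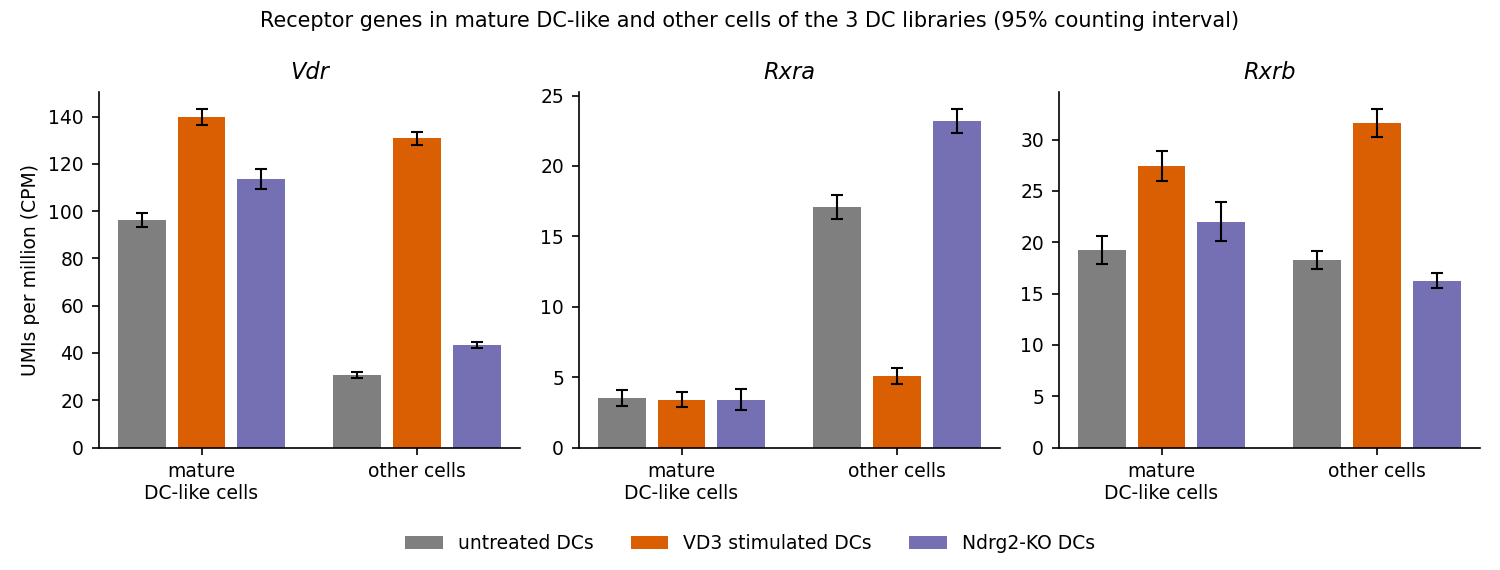
Vdr, Rxra and Rxrb in CPM in mature DC-like cells and all other cells of the untreated, VD3 stimulated and Ndrg2-KO libraries, on linear axes from 0; bars are summed levels and whiskers 95% counting intervals. Outside the mature class VD3 goes with high Vdr (131 CPM) and low Rxra (5.05 CPM), while Rxra in mature DC-like cells drawn by cluster is between 3.35 and 3.49 CPM (3.98 to 8.06 by marker gate, not plotted).

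In Ndrg2-KO DCs, with no Cyp24a1 UMI, the larger clusters also differed in Vdr and Rxra. The mature DC-like cluster 5 had 117 CPM of Vdr (113 to 122) and 3.45 of Rxra, and the premature DC or monocyte-like cluster 0 had 43.2 CPM of Vdr (41.7 to 44.7) and 26.2 of Rxra. The proliferating-like cluster 10 resembled cluster 0, with 34.1 and 22.5 CPM. Cluster 12, unnamed, lay between at 81.6 CPM of Vdr and 14.2 of Rxra. Both genes were low in the 126 progenitor-like cells (28.4 and 4.49 CPM) and in the 447 cells of the unnamed cluster 11 (30.1 and 5.01 CPM).

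By cluster, Vdr in the wounds was highest in the rare mature DC-like cells, with overlaps given below. It was 135 CPM (105 to 172) in 38 mature DC-like cells of wounds with control DCs, 26.5 (17.3 to 38.8) in 82 such cells of wounds with Ndrg2-KO DCs and 75.3 (60.8 to 92.2) in 87 of wounds with blank hydrogels. The 3 intervals did not overlap. The gate of at least 3 mature markers, read at 1000 UMIs, held fewer cells than the cluster here. By it Vdr was 33.4 CPM (16.7 to 59.8) in 24 cells with Ndrg2-KO DCs and 40.0 (22.9 to 64.9) in 29 cells with blank hydrogels, and these intervals overlapped. Wounds with control DCs had fewer than 20 gated cells, so no gate value was formed there. The unnamed cluster 4 had 52.0 CPM with control DCs, 20.8 (16.7 to 25.6) with Ndrg2-KO DCs, which overlapped the mature DC-like cells there, and 23.2 with blank hydrogels. This cluster mixed mast cell genes with genes of antigen presentation. Its cells with at least 3 mast or basophil markers, 2, 15 and 3 by library, had no Vdr UMI, but with upper limits of 191, 60.1 and 192 CPM they could not be separated from the remainder at 52.4, 21.1 and 23.3 CPM. Vdr was 2.70 to 5.79 CPM in fibroblast-like cells, 3.41 to 3.89 in macrophage-like cells and at most 0.303 CPM in neutrophil-like cells, where wounds with control DCs had no UMI (interval 0 to 2.23 CPM). By marker gate neutrophils had 6.46 CPM (3.22 to 11.6, 11 UMIs) with control DCs, 1.502 (0.875 to 2.41) with Ndrg2-KO DCs and 0.816 (0.265 to 1.91) with blank hydrogels. Endothelial-like cells had 20.9 CPM in 29 cells with control DCs and no UMI in 21 cells with Ndrg2-KO DCs. Keratinocyte-like cells, a known Vdr-bearing type, were numerous enough in wounds with blank hydrogels alone, with 44.9 CPM (27.8 to 68.6) in 33 cells. That interval overlapped those of the mature DC-like cells there, by cluster and by gate.

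Wounds with Ndrg2-KO DCs had less Vdr than wounds with control DCs, with a log2 ratio of −1.36 (−1.59 to −1.12) for the library, and wounds with blank hydrogels lay between at −0.52 (−0.74 to −0.30). Of the 3 genes with at least 50 UMIs, Vdr was past 2-fold in the first comparison, beside 4.4% of 13355 genes higher and 6.22% lower, and none was past it in the second, beside 3.71% higher and 3.89% lower. Both comparisons share the library of wounds with control DCs, and over all genes the log2 ratios had medians of −0.15 and −0.04. Neutrophil-like cells, low in Vdr by cluster, made up 460 of 1948 cells with control DCs, 2894 of 5681 with Ndrg2-KO DCs and 1562 of 3403 with blank hydrogels, and gave 5.57%, 20.1% and 17.1% of the UMIs in the same order. The part of the cell mix in the library ratios was not tested. In the wounds the premature DC or monocyte-like class was cluster 3, named from Lyz2, Fn1, Mmp12 and Chil3, without Csf1r or Ccr2. Its leading genes were Mmp12, Arg1 and Mmp13, so its name does not set it apart from macrophages. Within classes the ratio of Ndrg2-KO to control wounds was −2.35 (−3.07 to −1.68) in mature DC-like, −2.15 (−2.91 to −1.41) in premature DC or monocyte-like, −1.32 (−1.73 to −0.92) in cluster 4 and −0.95 (−1.51 to −0.42) in fibroblast-like cells, and 0.04 (−0.91 to 1.04) in macrophage-like cells. Macrophages drawn by marker gate did not share that last value, with 13.7 CPM of Vdr (11.2 to 16.5) with control DCs, 7.21 (5.87 to 8.76) with Ndrg2-KO DCs and 8.43 (6.74 to 10.4) with blank hydrogels. For blank hydrogels the same classes, by cluster, gave −0.85, −1.42, −1.16, −1.10 and 0.19. T cell-like cells were at −0.15 (−1.42 to 1.19) with Ndrg2-KO DCs and −0.28 (−1.83 to 1.21) with blank hydrogels, each against control DCs. In endothelial-like cells, 21 with Ndrg2-KO and 29 with control DCs, the interval lay below −0.93.

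**Figure D5:**
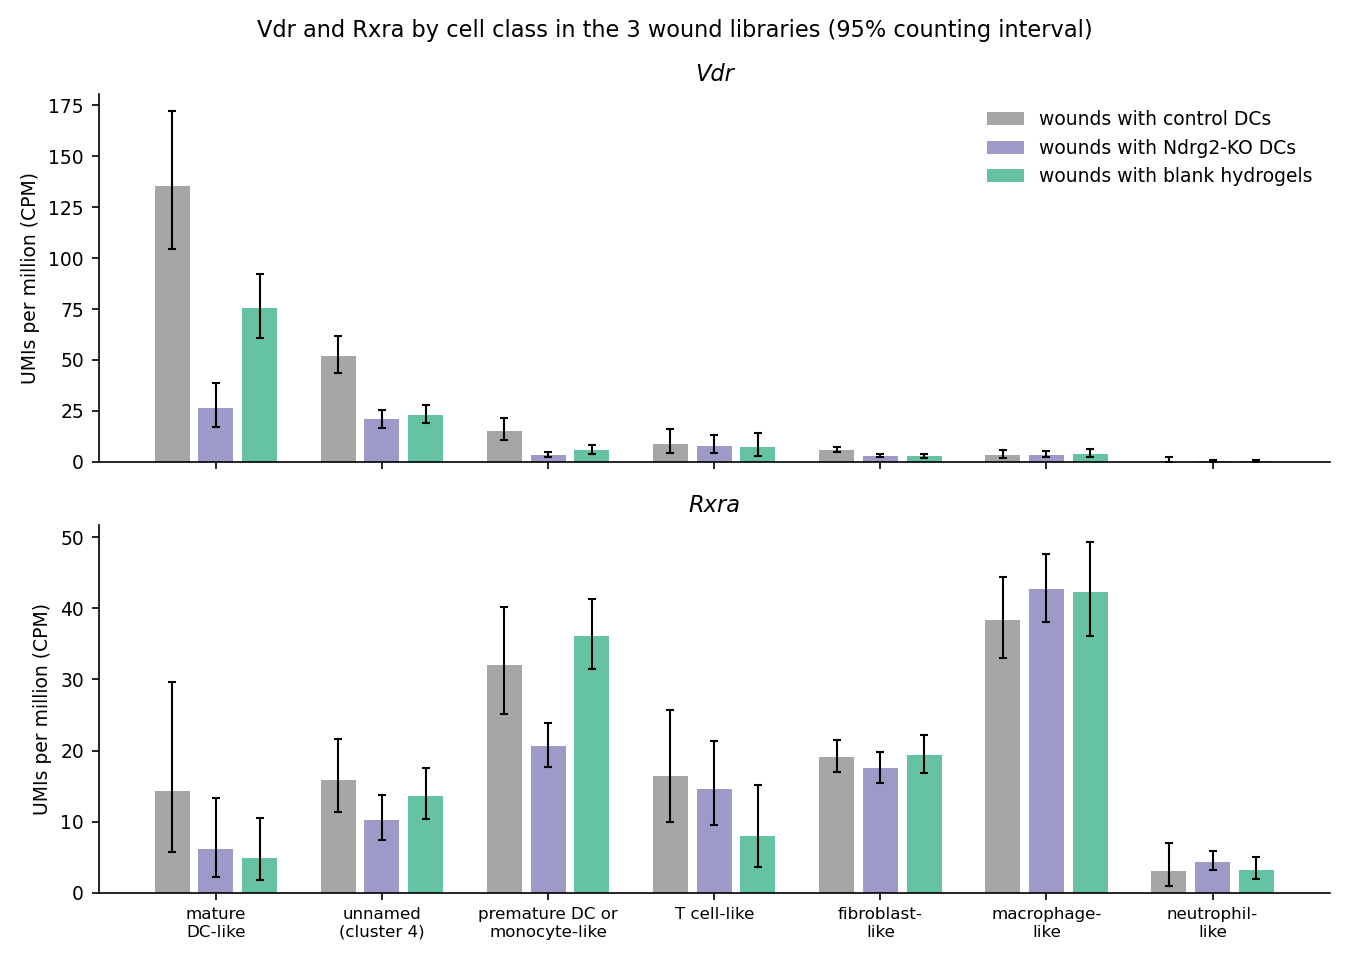
Vdr (top) and Rxra (bottom) in CPM by cell class in the 3 wound libraries, on linear axes from 0; bars are summed levels and whiskers 95% counting intervals. Among the plotted classes Vdr is highest in mature DC-like cells, and highest there with control DCs (135 CPM). Keratinocyte-like and endothelial-like cells are not plotted. Rxra is high in macrophage-like cells (38.3 to 42.7 CPM), with intervals that overlap the premature DC or monocyte-like cells in 2 of the 3 libraries.

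Rxra in the wounds was high in macrophage-like cells, at 38.3 CPM with control DCs, 42.7 with Ndrg2-KO DCs and 42.3 with blank hydrogels, and low in neutrophil-like cells at 3.02 to 4.35 CPM. The intervals of macrophage-like and premature DC or monocyte-like cells overlapped with control DCs and with blank hydrogels. Fibroblast-like cells held 17.5 to 19.4 CPM. In premature DC or monocyte-like cells Rxra was 32.0, 20.6 and 36.2 CPM, with a log2 ratio of −0.64 (−1.04 to −0.22) between Ndrg2-KO and control wounds. The mature DC-like cells rested on 6 to 7 Rxra UMIs per library, which could not separate them.

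Cyp27b1, the activating enzyme, was found chiefly in fibroblast-like and neutrophil-like cells, with 1 UMI each in premature DC or monocyte-like and T cell-like cells. Fibroblast-like cells held 8 of the 8 UMIs in wounds with control DCs, 2 of 12 with Ndrg2-KO DCs and 3 of 5 with blank hydrogels. In wounds with Ndrg2-KO DCs neutrophil-like cells held 9 of the 12. The mature DC-like cells had none in any wound, with an interval of 0 to 7.57 CPM with control DCs. Among the targets, Spp1 (2.05) and Cd14 (1.45) were higher and Fgf23, a phosphate hormone, (−2.34) and Tnfsf11, encoding RANKL, (−1.17) lower on the log2 scale in wounds with Ndrg2-KO DCs, as 4 of 8 measured beside 4.4% of all genes higher and 6.22% lower. With blank hydrogels Spp1 (1.45) was higher and Fgf23 (−2.65) lower, as 2 of 8 beside 3.71% and 3.89%. None of the activation and transport genes or coregulators was past 2-fold in either wound comparison. Fgf23 rested on 64, 21 and 12 UMIs.

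Across 71 units of cluster and library, which share libraries and depth, the gene whose log2 level was most like Cyp24a1 was Gm36028 (r = 0.77), followed by Gm38832 (0.72), Cisd2, an endoplasmic reticulum and mitochondrial iron-sulfur protein (0.65), Ankrd63 (0.64) and Sall2 (0.62). Gm38832 counted 92 UMIs in untreated, 1949 in VD3 stimulated and 208 in Ndrg2-KO DCs, or 0.694, 16.7 and 1.45 CPM. Gm36028 had 0.143, 3.16 and 0.829 CPM in the same order. The genes most like Vdr were Cox4i1, Rps27l, Uqcrh, Txndc17 and Rps27a, at 0.81 to 0.82, which include respiratory chain and ribosomal genes, each higher in every culture than in any wound library.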

How the data were processed

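The count matrices deposited by the authors hold raw UMI counts per gene and cell barcode. Per the file headers the DC libraries were counted with Cell Ranger 3.1.0 and the wound libraries with 6.0.0. The study's methods name mm10, the submitters' processing notes mm9, and Seurat 3.1.1; gene coordinates here are GRCm38. The members and gene lists were chosen with earlier results of these data known. The cell filter asked for 300 genes or more, fewer than 100000 UMIs and a mitochondrial share below 10%. The DC libraries and the wound libraries were clustered apart (scanpy 1.11.5, 2000 variable genes without the pathway genes, 15 components, 15 neighbours, igraph 0.11.9 Louvain at resolution 0.5). A cluster was named from at least 3 markers of at least 50 CPM and 2-fold over other cells, and stayed unnamed where 5 or more markers of another lineage passed; that rule was set after the clusters were seen. Scrublet marked at most 0.873% of the cells of a library, so it had not worked as a doublet caller, and no cells were removed by it. UMIs were summed per library or cluster. CPM intervals are exact Poisson, log2 ratios exact conditional binomial and shares exact Clopper-Pearson (SciPy 1.17.1), at 95%, and cover counting error only; with 1 library per condition no p-value was formed. Shares were taken after thinning to 2000 UMIs in DCs and 1000 in wounds, which left out 1149 VD3 stimulated and 472 untreated cells. A gene entered the 2-fold count if the pair of libraries summed to 50 or more of its UMIs. The named genes were the 5 members, Ndrg2, the genes of the pathway lists, the cell type markers and, for Cyp24a1 and Vdr, the 5 genes with the highest Pearson r among genes of at least 500 UMIs; Gdf15 was named after its values were seen, as were the Camp groups, the split of wound cluster 4 and the looser gate. On simulated Poisson counts over 13113 genes for VD3 stimulated against untreated DCs, 95.4% of the intervals held the true ratio. Those draws held no spread between cells or libraries, so they checked the interval formula alone. Hashtag, eGFP and tdTomato rows hold no UMIs and were not used.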

Additional observations from a re-analysis of the deposited data

How the results depend on the processing

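Of 111 alternative values of 15 log2 ratios, 87 lay within the interval of the reported value, and 29 of the 30 alternatives to ratios past 2-fold stayed past it. Among alternatives to ratios under 2-fold, 2 went past it, for Cyp27b1 in the wounds. The cause of the shifts below was not tested. A 5% mitochondrial limit left out most cells of each DC library. With it, VD3 against untreated gave 0.99 for Vdr, −1.87 for Rxra and 0.58 for Rxrb, and Ndrg2-KO against untreated gave −0.066 for Vdr and 0.80 for Rxra. With median-ratio scaling Vdr was 1.47 (VD3) and 0.18 (Ndrg2-KO), and Rxra was −0.15 between Ndrg2-KO and control wounds. With the mean of the cells' own CPM, Vdr was 1.23 (VD3) and 0.36 (Ndrg2-KO), and Rxra 0.76 (Ndrg2-KO). By the same mean, Ndrg2-KO against control wounds gave −1.80 for Vdr, 2.06 for Cyp27b1, −0.66 for Rxra and −0.44 for Rxrb, and blank against control wounds −0.36 for Rxra and 0.039 for Rxrb. With totals free of mitochondrial and ribosomal protein genes, Vdr was 1.49 and Rxrb 0.78 with VD3, and Vdr 0.018, Rxra 0.52 and Rxrb −0.20 with Ndrg2-KO. Vdr with Ndrg2-KO was 0.18 over all barcodes and 0.053 without the shallow clusters 3 and 4, the latter chosen after seeing the data.

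The share of VD3 stimulated cells with Cyp24a1 was 36.9% at 5000 UMIs, 39.7% without thinning and 17.8% with the 5% mitochondrial limit. Cyp24a1 by the looser mature gate, also chosen after seeing the data, was 126 CPM, and 578 in other cells. In the other cells drawn by cluster it was 523 CPM, and 562 CPM without the highest 6% of doublet scores. Counts of genes past 2-fold followed the UMI minimum, which changes how many genes are counted. With 200 UMIs or more they were 358 higher for VD3, 812 lower for Ndrg2-KO, 391 higher and 482 lower for Ndrg2-KO wounds, and 298 higher and 285 lower for blank wounds. With 1 UMI in each library they were 1338 higher and 1740 lower, 2108 and 2291, 1256 and 2143, and 1248 and 1638 in the order VD3, Ndrg2-KO, Ndrg2-KO wounds and blank wounds. No paired analysis was possible because each condition had 1 library and no test was made. Depth limits Cyp27b1, with 5 to 12 UMIs per wound library.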
